A study of Mus musculus with 9 samples.

Results

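The genes described here are 10 chromatin regulators of mouse medulloblastoma: the acetyltransferases Crebbp and Ep300, the KMT2 family genes Kmt2a, Kmt2b, Kmt2c, Kmt2d and Kmt2e, the demethylase gene Kdm6a, and the methyltransferase genes Setd2 and Nsd1. They were taken by name from a table of 47593 genes, and were chosen by gene name with their levels by Cdk6 label in these tumours already known, so the differences by label are a description. All 10 are protein-coding in GENCODE M21, and all 10 passed the filter on low counts that left 18356 genes. With 1003 to 18999 counts per gene and tumour, counting error was small beside the differences between tumours.

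CREBBP and EP300 are paralogous coactivators that acetylate histone tails, among them H3K27 at active enhancers. KMT2A to KMT2D deposit methyl groups on H3K4, KMT2A and KMT2B mainly near promoters and KMT2C and KMT2D mainly at enhancers, where KDM6A sits in the same complex and removes methyl groups from H3K27. SETD2 trimethylates H3K36 in gene bodies and NSD1 dimethylates it, while KMT2E is a relative without established methyltransferase activity, so the set is wider than histone methyltransferases. In human Hedgehog medulloblastoma, mutations recur in several of these genes, among them KMT2D and CREBBP.

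RNA was sequenced from 9 whole tumours of C57BL/6J mice, 6 labelled Cdk6-/- and 3 labelled Cdk6+/+. Every mouse carried the Cre transgene B6.Cg-Tg(Atoh1-cre)1Bfri/J, active in granule neuron progenitors (Atoh1 is also called Math1), and the allele GT(ROSA)26Sortm1(Smo/EYFP)Amc/J, which supplies constitutively active Smoothened once Cre has acted. Cdk6 is a kinase that drives cells out of G1, and the comparison asks how medulloblastomas without it differ from those with it. Age, sex and litter are not in the labels used here, and nothing says more of the replicates than that they are separate samples, so p-values measure the spread between these samples.

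The Cdk6-/- libraries held 21386685 to 34539738 counts and the Cdk6+/+ libraries 39426972 to 56837204, so every Cdk6+/+ library was deeper. Cdk6 was at 2.17 to 562 CPM (counts in 1000000 counts of the library, with library sizes scaled by edgeR's TMM method) in tumours labelled Cdk6-/- and at 551 to 562 CPM in tumours labelled Cdk6+/+. The 2.17 CPM belonged to Cdk6-/- tumour 5, and Cdk6-/- tumours 1 to 4 and 6 had 214 to 562 CPM. The labels do not name the deleted exons, so these values do not check the genotype and the groups are called by their labels. Tumour 5 of the Cdk6-/- group stood apart, with Mki67, a gene of dividing cells, at 0.398 CPM, against 711 to 1056 CPM in the 8 other tumours. The progenitor markers Atoh1 (0.0442 CPM), Barhl1 (5.97 CPM), Ccnd1 (22.2 CPM) and Gli1 were also lowest of the 9 in tumour 5. Its progenitor marker sum of 893 CPM was mostly Zic1, at 842 CPM, so that sum does not show the low levels of the other markers. The values over all 9 tumours include tumour 5. The mature granule neuron gene Gabra6 was at 1054 CPM in tumour 5 and at 931 CPM in Cdk6-/- tumour 1, against at most 161 CPM elsewhere. Tumour 5 also had the highest sum of Purkinje cell markers of the 9, with Itpr1 at 5527 CPM, Car8 at 1356 CPM and Calb1 at 1189 CPM, and it was the highest of the 9 for Crebbp, Ep300, Kmt2a and Kmt2c. Microglial markers were lower in Cdk6-/- tumours, with a sum over 4 genes of 55.7 to 128 CPM, against 196 to 222 CPM in Cdk6+/+ tumours, and 2 of the 4 fell (P2ry12 and Csf1r). The 4 globin genes, of which Hbb-bs and Hbb-bt fell, summed to 0.134 to 6.40 CPM in Cdk6-/- and 62.8 to 106 CPM in Cdk6+/+ tumours. The marker sums of 5 other cell types overlapped between the groups (progenitors 893 to 3462 CPM in Cdk6-/- and 2411 to 2693 CPM in Cdk6+/+ tumours, astrocytes 746 to 3744 and 2146 to 2235 CPM, Purkinje cells 62.3 to 8379 and 631 to 1278 CPM, endothelium 21.5 to 62.5 and 25.1 to 39.2 CPM), with 1 of 5 mature granule neuron markers higher (Rbfox3; sums of 362 to 3775 and 672 to 815 CPM), and no marker on these lists was at 0 in all tumours. Of the progenitor, astrocyte, Purkinje cell and endothelium markers none passed the test, and the 3 genes of each list with the smallest p (Gli1, Barhl1 and Atoh1, Aqp4, Gfap and Slc1a3, Itpr1, Pcp2 and Ppp1r17, Cdh5, Pecam1 and Cldn5) had log2 fold changes of -1.50 to 1.44. The nuclear RNA Malat1 was at 1415 to 10420 CPM in Cdk6-/- and 223 to 387 CPM in Cdk6+/+ tumours. The Y-linked gene Uty was expressed in Cdk6-/- tumours 2 to 5 and in no Cdk6+/+ tumour beyond 1 count, so the label is partly confounded with sex-linked expression. With Y-linked expression as a covariate 0.403% of all genes and none of the 10 were called. The median log2 fold change of the 10 was 0.98 in that fit, against 0.84 without the covariate. Values were larger than without it for Kmt2e (1.14), Kmt2c (1.08), Setd2 (0.89), Ep300 (0.78) and Nsd1 (0.64). They were nearer to no change for Kmt2d (1.28), Kmt2b (1.09), Crebbp (1.00), Kmt2a (0.96) and Kdm6a (-0.17). In that fit 6 of the 10 were at an unadjusted p under 0.05. The share of all genes at that threshold is not given here, so the 6 have no baseline. The part that the markers and Malat1 play in the values below was not tested. In whole tumours, fewer cells of a type and less RNA per cell cannot be told apart.

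Most of the 10 genes had higher levels in tumours labelled Cdk6-/-, and Kdm6a had lower ones. Fold changes were positive for 9 genes and negative for Kdm6a, with a median log2 fold change of 0.84, against 0.16 over all genes tested. For 6 genes (Crebbp, Ep300, Kmt2a, Kmt2b, Kmt2c and Nsd1) every Cdk6-/- tumour lay above every Cdk6+/+ tumour, an arrangement found in 7.56% of all genes tested. The opposite arrangement held for none of the 10 and for 7.98% of all genes. Crebbp was the 1 gene past an adjusted p of 0.05 in edgeR's quasi-likelihood test and it rose, where 2.76% of all genes rose, 2.43% fell and 5.19% were called in either direction. At an unadjusted p under 0.05 there were 7 genes, all higher, where 12.3% of all genes were higher and 7.01% lower. DESeq2 called Crebbp, Kmt2a, Kmt2b, Kmt2d and Nsd1 higher, and 7.77% of all genes it tested. None of the 10 is among the 761 genes of the authors' deposited DESeq2 table, all of which have adjusted p-values of 0.0499 or less. The DESeq2 fit made here called 2857 genes, so it differs from the authors' result. The rule by which genes entered the authors' table is not known here. Absence from it therefore does not give the authors' test result for these genes.

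Without Cdk6-/- tumours 1 and 5, 4 of the 10 genes were called higher, Crebbp, Kmt2a, Kmt2b and Kmt2d, and none lower, where 8.12% of all genes were called higher and 6.14% lower. The median was then 0.61, against 0.04 over all genes. These 2 tumours had the highest Gabra6 of the 9 but differed in Mki67, at 823 CPM in tumour 1 and 0.398 CPM in tumour 5. Without tumour 5 alone, edgeR called Crebbp (adjusted p = 0.00918) and Kmt2a (adjusted p = 0.0266) higher, where 742 of 18337 genes were called higher. The median of the 10 was then 0.66, against 0.10 over all genes. The call of Crebbp did not hold without any 1 of the 3 Cdk6+/+ tumours (adjusted p = 0.112, 0.0725 and 0.126 without tumours 1, 2 and 3), with a covariate for Y-linked expression (0.141) or with the trend of counts on exon length removed (0.0867). Its log2 fold change in these 5 fits was 0.90 to 1.17.

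**Figure D1:**
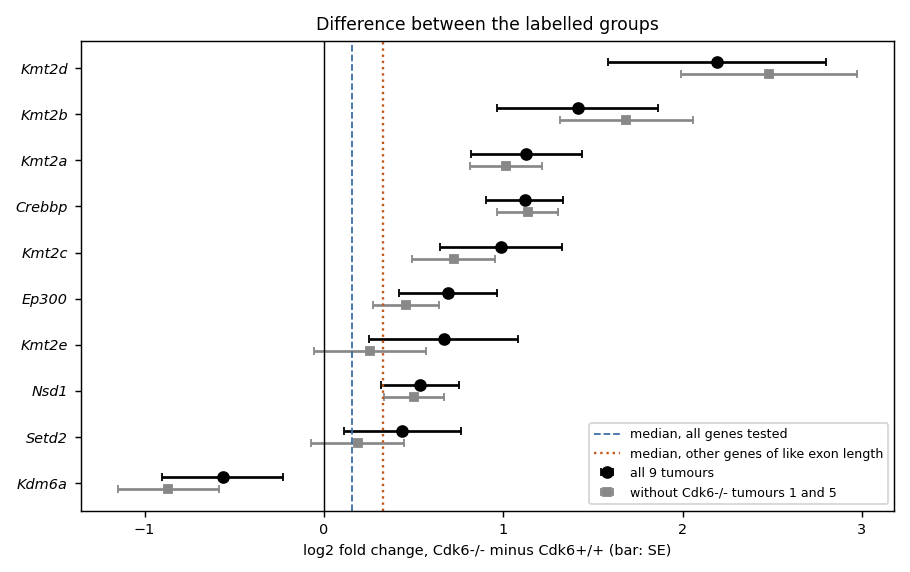
Log2 fold change of each gene, Cdk6-/- minus Cdk6+/+, with its standard error (horizontal axis), over all 9 tumours (circles) and without Cdk6-/- tumours 1 and 5 (squares). Dashed and dotted lines mark the medians of all genes tested (0.16) and of the other genes of like exon length (0.33). Kmt2d lies farthest right at 2.19 and Kdm6a is the 1 gene left of 0.

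Both acetyltransferase genes were higher in every Cdk6-/- tumour, and the spread between tumours was wider for Ep300. Crebbp (chromosome 16, 4081328 to 4213997, GRCm38) had 147 CPM at the lowest, 184 at the median and 204 at the highest in Cdk6-/- tumours, and 82.5, 90.0 and 75.4 CPM in Cdk6+/+ tumours 1 to 3. All 6 Cdk6-/- tumours, including tumour 5 with its low Mki67, lay well above the others and close together. The average was 179.5 ± 23.0 CPM in Cdk6-/- tumours (SD, n = 6) against 82.6 ± 7.27 CPM in Cdk6+/+ tumours (SD, n = 3), and the log2 fold change was 1.12 (SE 0.21, edgeR adjusted p = 0.0161).

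Ep300 (chromosome 15, 81585351 to 81652077) had 104, 132 and 216 CPM as lowest, median and highest in Cdk6-/- tumours, and 79.6, 94.9 and 88.6 CPM in the Cdk6+/+ tumours. The groups were apart, but Cdk6-/- tumour 3 came close to Cdk6+/+ tumour 2, and tumour 5 was highest. The log2 fold change of 0.69 (SE 0.27) missed the threshold (adjusted p = 0.198), and was 0.46 (SE 0.18, adjusted p = 0.120) without tumours 1 and 5. The ratio of Crebbp to Ep300, in counts per exon base, was 1.00, 1.46, 1.84, 1.85, 0.998 and 1.32 in Cdk6-/- tumours 1 to 6, and 1.09, 0.999 and 0.897 in Cdk6+/+ tumours 1 to 3. Both genes were thus at about the same level per length in the Cdk6+/+ tumours and in Cdk6-/- tumours 1 and 5, and Crebbp exceeded Ep300 in the other 4.

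**Figure D2:**
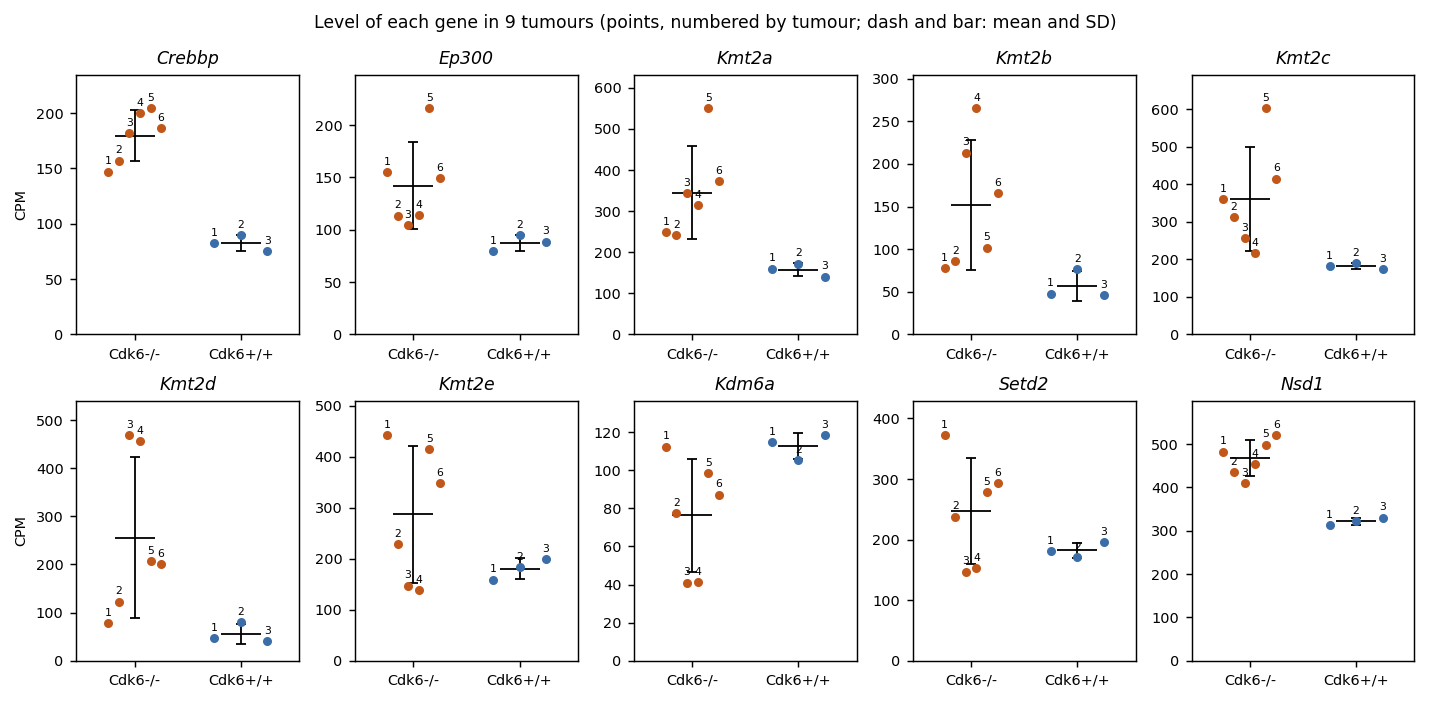
Level of each gene in CPM (vertical axes, from 0) in the 6 Cdk6-/- tumours (left in each panel) and the 3 Cdk6+/+ tumours (right), numbered by tumour, with mean and SD. Cdk6-/- tumours 3 and 4 are highest for Kmt2d and Kmt2b and lowest for Kdm6a, Kmt2e and Setd2.

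Among the H3K4 methyltransferase genes, Kmt2a and Kmt2b were both higher in Cdk6-/- tumours, and the tumours ranked differently for each. Kmt2a (chromosome 9, 44803355 to 44881296), the gene rearranged in human leukaemias, had 241, 329 and 549.8 CPM as lowest, median and highest in Cdk6-/- tumours, and 160.2, 172 and 141 CPM in Cdk6+/+ tumours. No Cdk6-/- tumour reached down to the Cdk6+/+ values and tumour 5 was highest. Its log2 fold change was 1.13 (SE 0.31, adjusted p = 0.0679), and 1.01 (SE 0.20, adjusted p = 0.0109) without tumours 1 and 5.

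Kmt2b (chromosome 7, 30568858 to 30588726), its closest paralogue, had 77.7, 134 and 265 CPM as lowest, median and highest in Cdk6-/- tumours, and 47.9, 76.9 and 45.8 CPM in Cdk6+/+ tumours. Cdk6-/- tumours 3 and 4 were highest, whereas tumour 1 was barely above Cdk6+/+ tumour 2. The log2 fold change was 1.41 (SE 0.45, adjusted p = 0.111), and 1.69 (SE 0.37, adjusted p = 0.0169) without tumours 1 and 5. Per exon base, Kmt2a stood at 1.85, 1.62, 0.927, 0.681, 3.10 and 1.296 times Kmt2b in Cdk6-/- tumours 1 to 6, and at 1.92, 1.29 and 1.77 times in Cdk6+/+ tumours. Kmt2b was the higher of the pair in Cdk6-/- tumours 3 and 4 alone among the 9.

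The enhancer-directed pair diverged more. Kmt2c (chromosome 5, 25271798 to 25498783) had 218, 338 and 603 CPM as lowest, median and highest in Cdk6-/- tumours, and 183, 190.2 and 174 CPM in Cdk6+/+ tumours. The Cdk6+/+ tumours were close together, Cdk6-/- tumour 4 lay just above them and tumour 5 far above. The log2 fold change was 0.99 (SE 0.34, adjusted p = 0.138), and 0.72 (SE 0.23, adjusted p = 0.0661) without tumours 1 and 5.

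Kmt2d (chromosome 15, 98831669 to 98871204), which also carries the mutations of Kabuki syndrome in humans, had 78.0, 123, 469, 456, 208 and 201 CPM in Cdk6-/- tumours 1 to 6, and 47.0, 80.0 and 40.8 CPM in Cdk6+/+ tumours 1 to 3. Tumours 3 and 4 of the Cdk6-/- group were far above the rest, and Cdk6-/- tumour 1 fell between Cdk6+/+ tumours, so the groups overlapped. Its log2 fold change was the highest of the 10, 2.19 (SE 0.61, adjusted p = 0.0700), and 2.48 (SE 0.49, adjusted p = 0.0111) without tumours 1 and 5. After adjustment for Y-linked expression it was 1.28 (adjusted p = 0.460).

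Per exon base, Kmt2d stood at 0.220, 0.401, 1.87, 2.14, 0.352 and 0.493 times Kmt2c in Cdk6-/- tumours 1 to 6, and at 0.262, 0.429 and 0.240 times in Cdk6+/+ tumours. In 7 of the 9 tumours Kmt2c was therefore the more abundant transcript per length, and in Cdk6-/- tumours 3 and 4 it was Kmt2d. Kmt2e (chromosome 5, 23434441 to 23504235), whose product binds H3K4 methyl marks, had 138, 288 and 443 CPM as lowest, median and highest in Cdk6-/- tumours, and 159, 183 and 199 CPM in Cdk6+/+ tumours. Here Cdk6-/- tumours 3 and 4 were below every Cdk6+/+ tumour and the other 4 above (log2 fold change 0.67, SE 0.42, adjusted p = 0.426). Exons of Srpk2 on the other strand cover 9.31% of its exon bases, and the strand setting of the counting is unknown here.

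**Figure D3:**
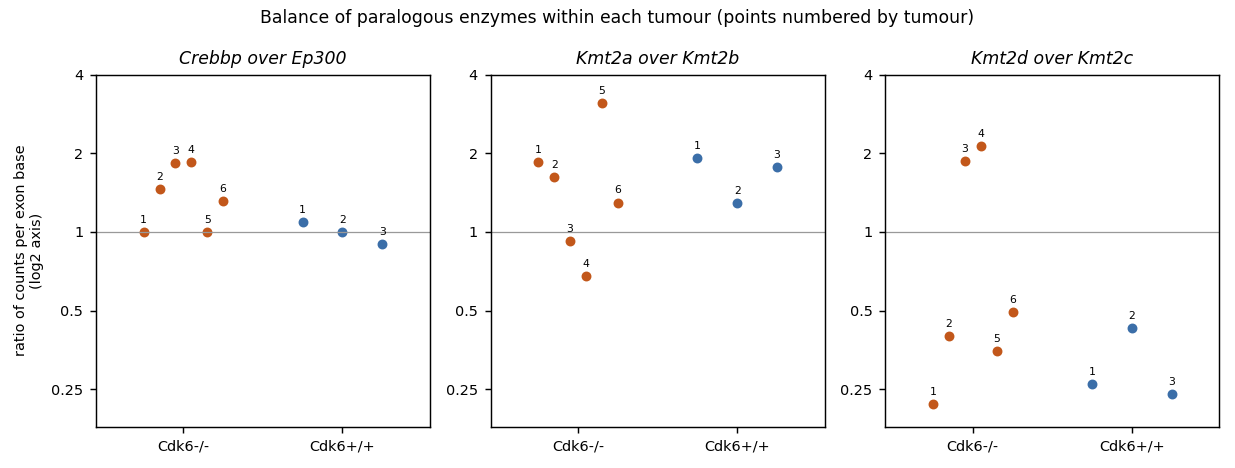
Ratio of counts per exon base between paralogues (vertical axis, log2 scale) in each Cdk6-/- tumour (left) and Cdk6+/+ tumour (right), numbered by tumour. Cdk6-/- tumours 3 and 4 sit at 1.87 and 2.14 for Kmt2d over Kmt2c, and the other 7 tumours lie between 0.220 and 0.493.

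For the pair Kmt2c and Kmt2d, and for Kdm6a, whose fold change was negative, the 250 bases before the RefSeq transcription start are shown (GRCm38.p6, 5′ to 3′ on the gene's strand), to set the promoter's composition beside that of the transcript. Capitals mark the Sp1-type GC box, GGGCGG, on either strand, with adjoining and overlapping matches run together.
Kmt2c (chr5:25498784-25499033, - strand): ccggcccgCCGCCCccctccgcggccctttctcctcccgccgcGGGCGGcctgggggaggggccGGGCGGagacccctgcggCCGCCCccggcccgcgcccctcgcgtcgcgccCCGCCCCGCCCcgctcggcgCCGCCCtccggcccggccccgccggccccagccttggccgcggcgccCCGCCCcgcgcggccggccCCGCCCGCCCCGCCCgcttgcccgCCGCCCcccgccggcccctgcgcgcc
Kmt2d (chr15:98871206-98871455, - strand): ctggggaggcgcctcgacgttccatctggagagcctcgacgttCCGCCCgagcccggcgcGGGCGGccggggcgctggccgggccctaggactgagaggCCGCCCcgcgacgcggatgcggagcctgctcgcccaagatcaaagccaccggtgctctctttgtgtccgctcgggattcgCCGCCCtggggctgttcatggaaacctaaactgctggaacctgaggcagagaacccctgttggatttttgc
Kdm6a (chrX:18162325-18162574, + strand): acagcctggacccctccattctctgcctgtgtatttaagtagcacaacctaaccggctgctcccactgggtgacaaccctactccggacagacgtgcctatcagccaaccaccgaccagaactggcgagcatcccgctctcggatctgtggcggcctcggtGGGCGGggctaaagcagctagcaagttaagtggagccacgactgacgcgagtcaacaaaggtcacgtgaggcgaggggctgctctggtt
These windows hold 12, 4 and 1 GC box matches and are 91.6%, 67.6% and 59.6% G or C, against a median of 52.4% over 32851 RefSeq promoters. The order of Kmt2c and Kmt2d is the reverse of that in their transcripts, where G and C make up 47.6% in Kmt2c and 58.4% in Kmt2d, against 42.5% in Kdm6a. RefSeq promoter entries matched 7 of the 10 genes (all but Kmt2b, Kmt2e and Nsd1), and all 7 windows hold the GC box, as do 32.7% of all promoters. By GENCODE M21 all 250 bases of the Crebbp and Ep300 windows lie in exons of these genes. None of the 7 holds the CREB response element TGACGTCA (1.546% of all promoters), the E2F sequences TTTCCCGC or TTTGGCGC (0.895% and 0.417%), the GLI sequence TGGGTGGTC (0.225%) or CCAAT (33.8%), each searched on both strands.

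Of the H3K36 methyltransferase genes, Nsd1 was apart between the groups and Setd2 was not. Nsd1 (chromosome 13, 55209782 to 55318325), mutated in human Sotos syndrome, had 411, 468 and 522 CPM as lowest, median and highest in Cdk6-/- tumours, and 314, 322 and 330.4 CPM in Cdk6+/+ tumours. Each group was tight, with a ratio of highest to lowest of 1.27 in Cdk6-/- and 1.05 in Cdk6+/+ tumours, the smallest of the 10 genes in both. Its log2 fold change of 0.54 (SE 0.22) missed the threshold in edgeR's test (adjusted p = 0.209) and passed it in DESeq2 (adjusted p = 0.0256).

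Setd2 (chromosome 9, 110532597 to 110618633) had 147, 258 and 373 CPM as lowest, median and highest in Cdk6-/- tumours, and 182, 171 and 195 CPM in Cdk6+/+ tumours. Cdk6-/- tumours 3 and 4 lay below the Cdk6+/+ tumours and the other 4 above them (log2 fold change 0.44, SE 0.33, adjusted p = 0.512). Relative to Nsd1 per exon base, Setd2 was at 0.919, 0.650, 0.426, 0.401, 0.664 and 0.668 in Cdk6-/- tumours 1 to 6, and at 0.688, 0.631 and 0.703 in Cdk6+/+ tumours.

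Kdm6a (X chromosome, 18162575 to 18279936) was the 1 gene of the 10 with a negative fold change. It had 112, 77.6, 41.1, 41.4, 98.4 and 87.2 CPM in Cdk6-/- tumours 1 to 6, and 115, 105 and 119 CPM in Cdk6+/+ tumours 1 to 3. Cdk6-/- tumours 2 to 6 all lay below every Cdk6+/+ tumour, and Cdk6-/- tumour 1 fell among them. The log2 fold change was -0.56 (SE 0.34, adjusted p = 0.403), and -0.87 (SE 0.28, adjusted p = 0.0695) without tumours 1 and 5.

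Kdm6a escapes X inactivation in mice, and its Y-linked paralogue Uty encodes a related protein with weak demethylase activity. Uty had 1110, 988, 863 and 1032 counts in Cdk6-/- tumours 2 to 5, 0 and 2 counts in Cdk6-/- tumours 1 and 6, and 0, 1 and 0 counts in the Cdk6+/+ tumours. Xist, transcribed from the inactive X chromosome, was at 131 and 1757 CPM in Cdk6-/- tumours 1 and 6, below 1 CPM in Cdk6-/- tumours 2 to 5, and at 1583 to 2087 CPM in Cdk6+/+ tumours. Uty was thus expressed in 4 Cdk6-/- tumours and at no more than 2 counts in each of the other 5 tumours. Of the Cdk6-/- tumours without Uty expression, tumour 6 had Kdm6a at 87.2 CPM, below the 3 Cdk6+/+ tumours. Tumour 1 had it at 112 CPM, among them.

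Adding the counts of Uty to those of Kdm6a gave 100.8 ± 29.4 CPM (SD, n = 6) in Cdk6-/- and 113 ± 6.89 CPM (SD, n = 3) in Cdk6+/+ tumours. Summed levels were lowest in Cdk6-/- tumours 3 and 4 (65.5 and 77.0 CPM) and highest in Cdk6-/- tumour 5 (144 CPM). After adjustment for Y-linked expression, Kdm6a had a fold change on the log2 scale of -0.17 (adjusted p = 0.916). Kdm5c, the X-linked H3K4 demethylase gene, had 94.95 to 199 CPM in Cdk6-/- and 106 to 128 CPM in Cdk6+/+ tumours (log2 fold change 0.16, SE 0.28, adjusted p = 0.805).

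**Figure D4:**
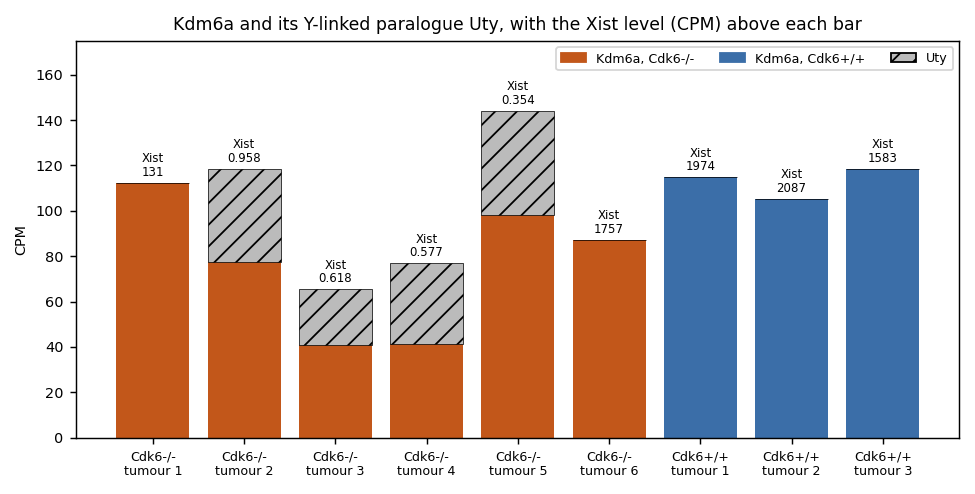
CPM of Kdm6a (coloured) and Uty (hatched, stacked on it) in the 6 Cdk6-/- tumours (left) and 3 Cdk6+/+ tumours (right), with the Xist level in CPM above each bar. Uty is visible in Cdk6-/- tumours 2 to 5, which are those with Xist below 1 CPM.

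Set side by side per exon kilobase, Nsd1 was the most abundant of the 10 and Kmt2d the least in Cdk6+/+ tumours. Mean CPM per kilobase in Cdk6-/- and Cdk6+/+ tumours was 36.5 ± 3.25 and 25.2 ± 0.644 for Nsd1 (SD, n = 6 and 3). Kmt2e followed at 27.5 ± 12.8 and 17.3 ± 1.93, then Setd2 at 23.0 ± 8.10 and 17.0 ± 1.14, and in neither group did Kmt2e and Setd2 differ beyond their spread. Kmt2d had 12.9 ± 8.42 in Cdk6-/- and 2.81 ± 1.06 in Cdk6+/+ tumours. Kdm6a was last in the order of the Cdk6-/- means at 9.36 ± 3.62, and in the order of the Cdk6+/+ means it stood just after Setd2 at 13.8 ± 0.846. The remaining 5 genes lay between 9.94 and 20.7 in Cdk6-/- and between 5.93 and 9.46 in Cdk6+/+ tumours, with overlapping spreads among Crebbp, Ep300 and Kmt2b in both. Within single tumours Kmt2d ranked last of the 10 in 7 tumours, and was among the 3 highest in Cdk6-/- tumours 3 and 4.

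The genes that were high in Cdk6-/- tumours 3 and 4 were those with GC-rich transcripts. Across the 10 genes, GC content of the longest transcript ran from 42.5% in Kdm6a to 59.1% in Kmt2b. The log2 level relative to the Cdk6+/+ mean had a Pearson correlation with it, over the 10 genes, of -0.12, 0.71, 0.93, 0.95, 0.56 and 0.84 in Cdk6-/- tumours 1 to 6, and of -0.63, 0.97 and -0.90 in Cdk6+/+ tumours 1 to 3, whose own mean is the baseline. A high coefficient was therefore found in both groups. The points of each value share a library and are not independent. The fitted slope over the 10 genes was 2.13 and 2.24 on the log2 scale per 10 percentage points of GC in Cdk6-/- tumours 3 and 4, and -0.08 to 0.93 in the other 4.

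Transcripts outside the 10 genes also followed GC content in those tumours, with lower fitted slopes. Over the 1960 other genes within the same range of exon length (8158 to 20291 bases) the slope was 0.85 in Cdk6-/- tumour 3 and 0.91 in tumour 4, and over 17629 genes of any length it was 0.36 and 0.42. In Cdk6+/+ tumours 1 to 3 the slope over the 10 genes was -0.11, 0.39 and -0.28. With the trend of each library on GC content removed, an alternative added after seeing the data, the log2 fold change of Kmt2d was 1.83 (adjusted p = 0.0172), that of Kmt2b 1.09 (adjusted p = 0.0178) and that of Kdm6a -0.50 (adjusted p = 0.282), and 3 of the 10 were called, all higher, as were 2.91% of all genes. With the exon length trend removed as well, Kmt2d (1.62, adjusted p = 0.109) and Kmt2b (0.99, adjusted p = 0.0992) were no longer called and Crebbp alone was, where 3.27% of all genes were called higher.

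**Figure D5:**
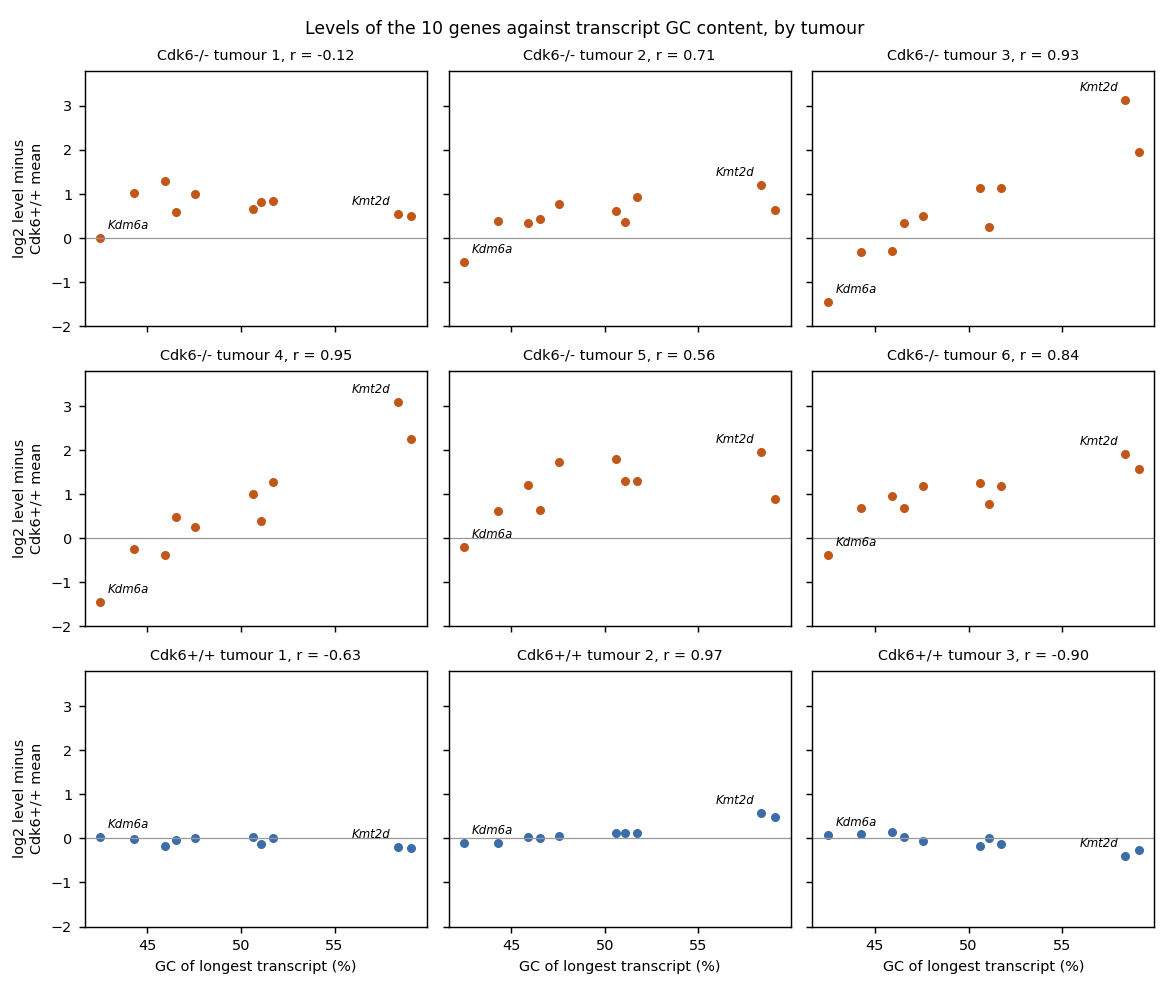
Log2 level of each gene minus its Cdk6+/+ mean (vertical axis) against the GC percentage of its longest transcript (horizontal axis), 1 panel per tumour, with Pearson's r over the 10 genes. In Cdk6-/- tumours 3 and 4 the points rise from Kdm6a at the lower left to Kmt2d and Kmt2b at the upper right.

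All 10 genes have long exon sequence, and fold changes between the groups rose with exon length over the genes tested. The tumours differed in this trend. Over 17629 genes, the slope of the log2 level relative to the Cdk6+/+ mean was taken per doubling of exon length. It was 0.25, 0.09, -0.02, -0.04, 0.27 and 0.13 in Cdk6-/- tumours 1 to 6. In Cdk6+/+ tumours 1 to 3 it was -0.03, 0.01 and 0.02. The median log2 fold change was -0.003 for the 4418 tested genes with up to 2000 exon bases, 0.31 for the 1956 with over 8000 to 16000 and 0.57 for the 247 with over 16000. Beside the median of 0.84 of the 10 genes, the 2006 other tested genes of 8158 to 20291 exon bases had a median of 0.33, with quartiles of -0.01 and 0.73. Of these 7.53% had every Cdk6-/- tumour above every Cdk6+/+ tumour and 0.947% were called higher. Crebbp, Kmt2a, Kmt2b, Kmt2c and Kmt2d lay above that upper quartile, and Ep300, Kmt2e, Setd2 and Nsd1 between the quartiles. With the length trend of each library removed, the median of the 10 was 0.48 and none was called in edgeR's test, where 3.13% of all genes were called higher. At an unadjusted p under 0.05 there were 6 in either direction, among them Kdm6a with a negative log2 fold change (-0.73). Over all genes 11.9% were higher at that threshold, a share of higher genes only that is not the baseline of this count.

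Of 69 tested genes in 5 lists of the same pathways, 3 were called (4.35%, against 5.19% of all genes), and 12 were at an unadjusted p under 0.05, all higher (17.4%, against 12.3% of all genes). The 12 include the Y-linked genes Uty, also called, and Kdm5d, neither with more than 1 count in a Cdk6+/+ tumour. Of 14 tested COMPASS subunits and partners, which assemble with KMT2 enzymes or their relatives SETD1A and SETD1B, none was called (2 at an unadjusted p under 0.05, both higher, and 0 by DESeq2), with a median log2 fold change of 0.13. Those 2 were the catalytic subunit genes Setd1b at 72.5 ± 27.2 and 33.9 ± 8.23 CPM in Cdk6-/- and Cdk6+/+ tumours (log2 fold change 1.10, adjusted p = 0.133) and Setd1a at 36.2 ± 10.05 and 19.4 ± 4.87 CPM (0.90, adjusted p = 0.139). The shared core subunit genes Wdr5, Rbbp5, Ash2l and Dpy30 had log2 fold changes of 0.07, -0.02, -0.07 and -0.35, none past the test. Ncoa6, a subunit of the KMT2C and KMT2D complexes, had 0.52 (adjusted p = 0.292), and Paxip1, another, 0.21.

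Of 11 other acetyltransferase and coactivator genes none was called by edgeR (2 at an unadjusted p under 0.05, both higher), and DESeq2 called Kat6b higher. Kat6b, an H3K23 acetyltransferase of the MOZ family, had 142 ± 29.8 CPM in Cdk6-/- and 81.8 ± 10.7 CPM in Cdk6+/+ tumours (SD; log2 fold change 0.80, SE 0.24, edgeR adjusted p = 0.100). The next by p were Ncoa3 (0.51) and Kat6a (0.50), and the list's median was 0.26. Of 7 tested CREB and CITED partners of CREBBP and EP300, Crtc2, a coactivator that joins them on CREB, was called higher. It had 60.3 ± 23.8 CPM in Cdk6-/- and 21.3 ± 6.41 CPM in Cdk6+/+ tumours (SD, n = 6 and 3; log2 fold change 1.50, SE 0.37, adjusted p = 0.0460). Creb1 itself had 197 ± 56.2 and 248 ± 24.5 CPM (log2 fold change -0.33, adjusted p = 0.561).

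None of 17 further genes listed as histone methyltransferases was called by edgeR (2 at an unadjusted p under 0.05, both higher), and their median was 0.23. Enzyme activity was not checked for each gene of that list. Dot1l, the H3K79 methyltransferase, had 136 ± 51.1 and 55.5 ± 17.2 CPM in Cdk6-/- and Cdk6+/+ tumours (log2 fold change 1.296, SE 0.38, adjusted p = 0.0871). Setd5 had 457 ± 118 and 221 ± 24.9 CPM (1.04, SE 0.31, adjusted p = 0.0902), and Ash1l, an H3K36 methyltransferase gene, 0.88 (adjusted p = 0.283). DESeq2 called Dot1l and Setd5 higher. Of 20 tested demethylase genes 2 were called, both higher: Uty, described above, and Kdm2a, an H3K36 demethylase with a CXXC domain. Kdm2a had 228 ± 13.05 CPM in Cdk6-/- and 129 ± 6.91 CPM in Cdk6+/+ tumours (log2 fold change 0.82, SE 0.20, adjusted p = 0.0401). Kdm6b, the other active paralogue of Kdm6a, had 75.05 ± 45.9 and 42.4 ± 11.1 CPM (0.82, SE 0.54, adjusted p = 0.450). Without Cdk6-/- tumours 1 and 5, Setd1a and Setd1b, Kat6b, Crtc2, Setd5 and Dot1l, and Kdm2a, Kdm3a, Kdm5d and Uty were called higher in these 5 lists, and none lower. By list these were 2 of 14, 1 of 11, 1 of 8, 2 of 17 and 4 of 20 tested genes, where 8.12% of all genes were called higher. Kdm5d and Uty are Y-linked.

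Among the 10 genes, Nsd1, Kmt2a and Crebbp followed the mean profile of the other 9 most closely over the 9 tumours (Pearson r of log2 CPM 0.95, 0.94 and 0.91), and Kdm6a ran against it (-0.45). Of 10168 other genes averaging 10 CPM or more, Tnrc6c, an Argonaute-binding silencing factor, was most like the mean profile of the 10 (r = 0.98 over 9 tumours). It was followed by the chromatin remodeller gene Chd6, Hexim1, whose product inhibits P-TEFb, Tcf20 and the formin gene Diaph1, with r of 0.97 to 0.98. Of these 5, Tnrc6c (log2 fold change 1.10, adjusted p = 0.0276) and Tcf20 (1.09, adjusted p = 0.0284) were called higher. Most like Kdm6a were Cog5, Mars2, Uqcrc2, Rrm2b and Ncoa4 (r = 0.98 to 0.99), none of them called and all with negative fold changes of -0.44 to -1.30, and their transcripts had a GC content of 38.8% to 45.3%. Profiles over 9 tumours share the split by label and by library, and the coefficients are given as a description. Both sets of 5 genes were picked by likeness over these same tumours, so the direction of their fold changes follows in part from the choice. The GC range of the genes most like Kdm6a has no baseline here.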

How the data were processed

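Per the labels' protocols, RNA of flash-frozen tumours was isolated with Trizol and 1 microgram was used for Illumina TruSeq libraries. Tools listed in the submitters' processing notes, with no version, are HISAT2, Trimmomatic, FastQC and DESeq2, and the build is GRCm38.p6. For the counting tool and its strand setting the sources used here give nothing. The authors deposited whole-number counts per gene, unnormalized, with exon lengths, and a table of log2 fold changes with standard errors, p-values and adjusted p-values from DESeq2. A score in that table, deposited by the authors, was not used.

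The filterByExpr rule of edgeR 4.0.16 under R 4.3.3 removed 29237 genes, and the rest were scaled by TMM and tested over all 9 tumours with the two-sided robust quasi-likelihood F test, genotype only, with Benjamini-Hochberg adjustment over 18356 genes (threshold 0.05). Standard errors derive from the test statistic. Log2 levels use a prior count of 2. The Y-linked covariate is the mean log2 level of Ddx3y, Uty, Kdm5d and Eif2s3y. Alternatives used DESeq2 1.42.0 and limma 3.58.1. A gene that misses the threshold is not shown to be unchanged. The lists and the 10 genes were chosen with earlier results of these data known, so their differences by label are a description, and the p-values are no independent support. From each list the text names genes past the threshold, otherwise the 3 with the smallest p, and further members for their role; 1 marker list is not reported here. GC content and annotation come from GENCODE M21 and promoters from RefSeq. The positions of all 10 genes equal those in GENCODE M21, and at most 8.59% of their 50-base sequences occur in another gene. No pair of libraries of 1 group agreed within sampling noise (chi-square of 34.0 or more per degree of freedom).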

Additional observations from a re-analysis of the deposited data

How the results depend on the processing

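Over 21 other settings, the log2 fold changes of the 10 genes kept their direction in all 210 values, while calls moved: 12 values passed the threshold only there and 6, all of Crebbp, no longer did. The median of the 10 was 0.48 with the exon length trend removed and within the spread between tumours (SD 0.35) of the main value elsewhere, 0.66 to 0.96 with 1 tumour left out. The number of the 10 called was 5 with DESeq2, 4 without Cdk6-/- tumours 1 and 5, 3 with the GC trend removed, 2 with limma-voom, 0 with the length trend removed, 0 with the Y-linked level as covariate (6 at an unadjusted p under 0.05, with no share of all genes given for it) and 0 to 2 with 1 tumour left out. Over all genes, 953 were called (507 higher, 446 lower), against 2857 with DESeq2 (1927 higher, 930 lower), 2643 without Cdk6-/- tumours 1 and 5, 1132 with limma-voom (576 higher, 556 lower), 563 with at least 1 CPM in 3 tumours, 74 with the Y-linked level as covariate and 207 to 1506 with 1 tumour left out (525 and 1506 without Cdk6-/- tumours 3 and 5, and 221, 400 and 207 without Cdk6+/+ tumours 1 to 3). DESeq2's size factors in edgeR moved neither count by over 1.5 times. The median of all genes, 0.16, was 0.28 with no filter on low counts and 0.00 with limma-voom, where the 10 genes had medians of 0.77 and 0.78. Where a value shows no cause by construction, the cause was not tested.

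Tumour numbers are shared between the groups. Deviations from the group means of same-numbered tumours correlated at 0.05, -0.18 and -0.25, so no pairing by number was seen. Whether same-numbered tumours shared a litter or a preparation cannot be told from these values. With a replicate block on tumours 1 to 3, 753 genes and 0 of the 10 were called (5 at an unadjusted p under 0.05, with no share of all genes given for it), against 985 and 1 in the same tumours without the block. The adjusted p of Crebbp was 0.131 with the block (log2 fold change 0.98) and 0.0372 without it.

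Each of the 10 genes had at least 1003 counts in every tumour, so counting error was small. Every Cdk6+/+ library was deeper than every Cdk6-/- library, and the part that depth plays in the differences was not tested. The biological coefficient of variation was 0.542 over all tumours and 0.348 without Cdk6-/- tumours 1 and 5.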
